A study of Homo sapiens with 6 samples.

Results

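The S100 genes encode small calcium-binding proteins, and 10 of them were examined here in MIA PaCa-2 cells, a human cell line from a pancreatic carcinoma: S100A2, S100A3, S100A4, S100A6, S100A10, S100A11, S100A13, S100A14, S100A16 and S100P. They were selected by symbol among the 35993 genes of the deposited table, and 8 of the 10 passed the filter on low counts that left 14728 genes for testing. The cells were the same line in both groups and were moved to DMEM with 1% FBS the day before treatment, after growth with 10% FBS and 2.5% horse serum. RNA-seq was performed on 3 untreated libraries and on 3 libraries from cells given 4 µM of rhCYGB, a recombinant human cytoglobin with a 6His tag made in E. coli, for 48 h. Cytoglobin is a heme protein of pericytes and stellate cells, and the comparison asks how the carcinoma cells responded to it from outside. Nothing in the labels says that the libraries came from separate cultures, so p-values measure only the spread between these libraries. In bulk RNA, fewer cells of a type and less RNA per cell cannot be told apart.

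Most S100 proteins form dimers, and binding of calcium to their EF-hand loops opens a surface that grips partner proteins such as annexins or myosin heavy chains. Some are also released from cells without a signal peptide and act on receptors such as RAGE. Many of the genes lie next to each other on chromosome 1, and several are known for high levels in pancreatic carcinoma.

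After rhCYGB, 2 of the 8 tested S100 genes were higher (S100A2 and S100A11), 5 were lower (S100A3, S100A4, S100A6, S100A10 and S100A13), and S100A16 did not pass the test (edgeR quasi-likelihood test, Benjamini-Hochberg adjusted p under 0.05 over all 14728 genes). The background is high, since 77.6% of all tested genes passed the same test, 39.0% as higher and 38.6% as lower. A high number of called genes is therefore not particular to the S100 genes. By the stricter limit of a 2-fold change, S100A2 was higher and S100A3 and S100A4 were lower, beside 12.4% of all tested genes higher and 14.7% lower. The median log2 fold change of the 8 genes was -0.21, beside -0.00457 for all tested genes. CPM values (counts scaled to library size, with TMM factors) of the groups did not overlap for any of the 8 genes, and this held for 79.5% of all tested genes.

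**Figure D1:**
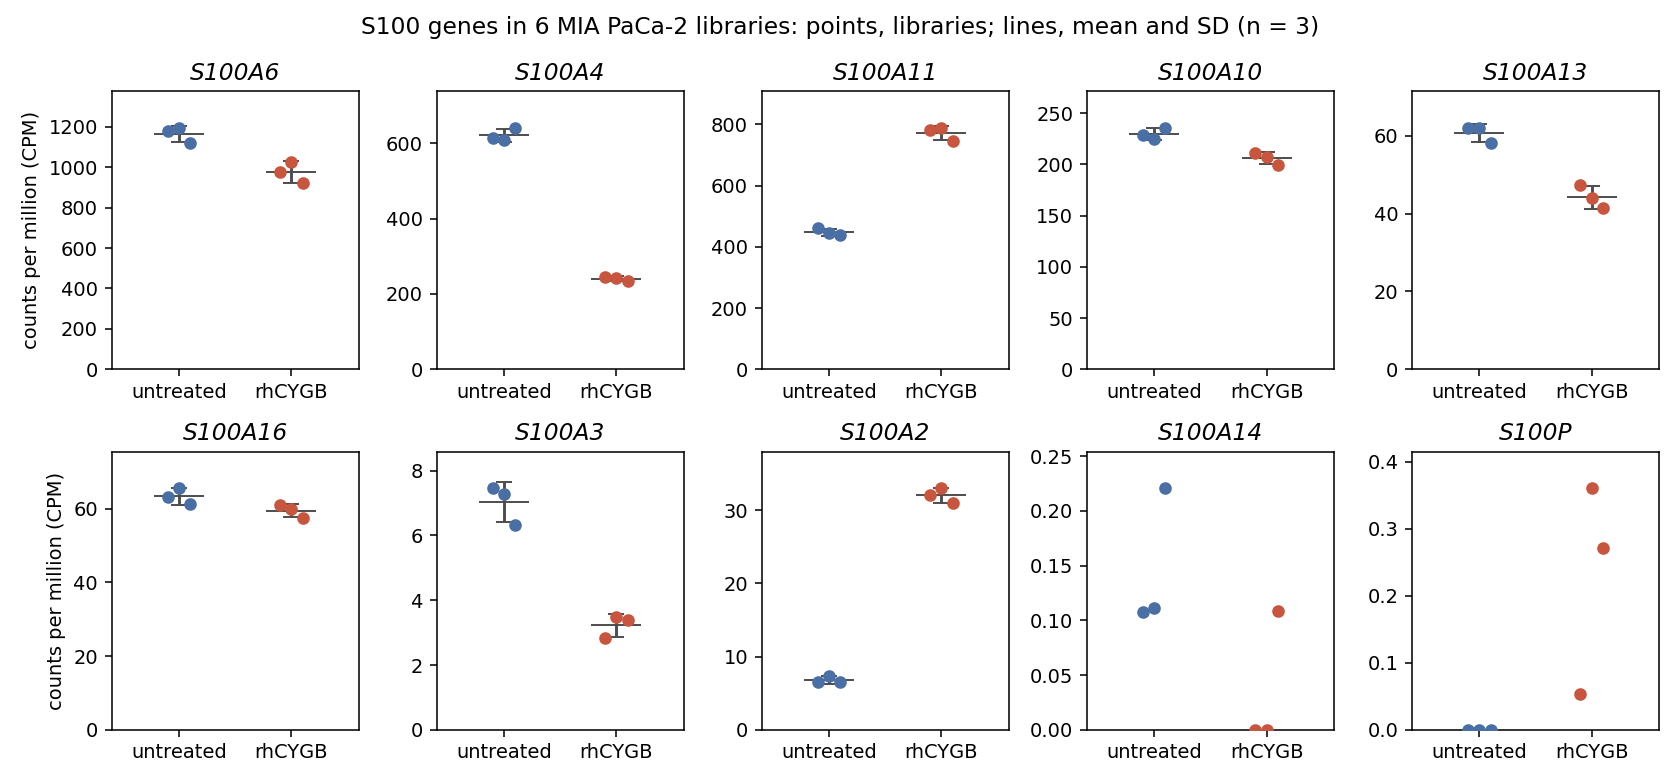
Level of each of the 10 S100 genes in scaled counts (CPM, each vertical axis from 0) in the 3 untreated and the 3 rhCYGB libraries. Points are libraries, lines are the mean and SD of 3 libraries (not drawn for S100A14 and S100P, which were too low to test), and only S100A2, S100A11 and S100P lie higher after rhCYGB.

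To show where the start of transcription lies for S100A2, S100A4 and S100A11, RefSeq promoter windows of GRCh38.p14 are given (250 bases before to 50 after a start, 5′ to 3′ on the gene's strand; all 10 genes matched, with 14 windows). Each was searched on both strands for the letters TATAAA of the box near many starts, for the CCAAT box under that spelling, for an Sp1 box (GGGCGG), an AP-1 site (TGAGTCA) and a site for ATF4 and its relatives (TGATGNAA), and matches are in capitals. S100A2 has 2 starts 1957 bases apart, shown here because its transcripts differ in which of them they use.

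S100A2 upstream start, chr1:153565795-153566094, minus strand: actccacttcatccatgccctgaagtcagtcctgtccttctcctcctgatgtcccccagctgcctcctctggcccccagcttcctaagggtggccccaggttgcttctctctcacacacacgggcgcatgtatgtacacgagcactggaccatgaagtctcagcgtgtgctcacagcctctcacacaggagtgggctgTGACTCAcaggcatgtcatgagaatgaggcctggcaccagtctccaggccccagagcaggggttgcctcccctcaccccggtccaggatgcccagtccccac
S100A2 inner start, chr1:153563838-153564137, minus strand: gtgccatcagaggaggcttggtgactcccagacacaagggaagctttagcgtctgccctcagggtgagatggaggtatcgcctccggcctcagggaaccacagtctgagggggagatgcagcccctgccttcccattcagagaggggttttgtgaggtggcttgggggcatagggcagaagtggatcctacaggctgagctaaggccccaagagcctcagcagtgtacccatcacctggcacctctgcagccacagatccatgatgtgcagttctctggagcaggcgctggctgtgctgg

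S100A4 and S100A11 are shown as the abundant members with the largest fall and the largest rise.

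S100A4, chr1:153545757-153546056, minus strand: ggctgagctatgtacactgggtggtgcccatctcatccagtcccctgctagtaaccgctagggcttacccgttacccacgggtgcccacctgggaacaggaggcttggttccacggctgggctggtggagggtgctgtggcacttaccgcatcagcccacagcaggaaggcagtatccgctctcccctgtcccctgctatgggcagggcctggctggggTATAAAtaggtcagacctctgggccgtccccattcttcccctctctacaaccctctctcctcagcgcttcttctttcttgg
S100A11, chr1:152036955-152037254, minus strand: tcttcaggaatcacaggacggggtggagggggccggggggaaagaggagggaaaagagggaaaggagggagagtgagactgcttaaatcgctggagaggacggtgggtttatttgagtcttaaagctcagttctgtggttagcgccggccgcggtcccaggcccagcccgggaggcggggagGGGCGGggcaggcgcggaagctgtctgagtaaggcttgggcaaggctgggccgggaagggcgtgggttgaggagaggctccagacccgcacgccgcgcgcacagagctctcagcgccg

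The upstream S100A2 window holds the AP-1 letters TGAGTCA once, on the opposite strand at -52 to -46 from the start, and 4.95% of the 35116 promoter windows hold it. The inner S100A2 window holds none of the letters searched. The S100A4 window holds TATAAA at -31 to -26 (11.5% of all windows), and the S100A11 window holds GGGCGG at -68 to -63 (45% of all windows). Among the 14 windows of the 10 genes, 3 held the letters TATAAA, 3 the CCAAT box, 6 the Sp1 box, 2 the AP-1 site and 1 the ATF4 site. The CCAAT box stood in 34.6% and the ATF4 site in 3.62% of all windows. A match describes the letters only.

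The annexin-binding members moved apart. S100A11 binds annexin A1 and takes part in growth control of epithelial cells. It was at 460.0, 446 and 438 CPM in untreated libraries 1 to 3 and at 783, 789 and 745 CPM in rhCYGB libraries 1 to 3. All 3 treated libraries lay well above the untreated ones. The means were 448 ± 11.3 and 772 ± 23.7 CPM (SD, n = 3 each), and the log2 fold change was 0.79 (SE 0.036, edgeR adjusted p = 2.16e-11). Of the pseudogenes of S100A11, 3 are in the table and held at most 1 count in any library.

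S100A10 (p11) pairs with annexin A2 at the plasma membrane, where the pair binds plasminogen, and has lost the ability to bind calcium. Its untreated libraries were at 228, 225 and 236 CPM and its rhCYGB libraries at 211, 207 and 199.5 CPM. The gap between the groups was narrow, though no library crossed it. The log2 fold change was -0.16 (SE 0.037, edgeR adjusted p = 0.00141).

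S100A6 (calcyclin) binds annexin A11 and the calcyclin-binding protein CACYBP and rises in many proliferating cells. It was the most abundant member, at 1177, 1196 and 1119.9 CPM without and 978, 1028 and 920.4 CPM with rhCYGB. Every treated library was below every untreated one. Its mean was 1164 ± 39.6 CPM untreated and 975 ± 53.6 CPM treated (log2 fold change -0.26, SE 0.041, edgeR adjusted p = 3.91e-05).

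S100A4 (metastasin) binds the heavy chain of non-muscle myosin IIA and is known for promoting cell motility. In untreated libraries it stood at 614, 608 and 642 CPM, and after rhCYGB at 246, 243 and 234 CPM. The groups were far apart, with little spread inside either. The mean fell 2.58-fold, from 621 ± 18.1 to 241 ± 5.81 CPM (log2 fold change -1.37, SE 0.037, edgeR adjusted p = 5.90e-14).

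S100A2 is best known in epithelia. It stood at 6.52, 7.36 and 6.50 CPM in the untreated libraries, from 243 to 330 counts, and at 32.1, 33.0 and 31.0 CPM after rhCYGB, from 1098 to 1194 counts. The libraries of each group lay close together and the groups were far apart. The mean rose 4.71-fold, from 6.79 ± 0.493 to 32.0 ± 1.00 CPM, the largest change among the tested members (log2 fold change 2.23, SE 0.073, edgeR adjusted p = 4.53e-13).

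S100A13 takes part in the release of FGF1 and interleukin-1 alpha, which lack a signal peptide. Its CPM values were 62.1, 62.1 and 58.1 without rhCYGB and 47.3, 44.0 and 41.4 with it. All treated libraries were lower, and the mean went from 60.7 ± 2.29 to 44.2 ± 2.94 CPM. The log2 fold change was -0.46 (SE 0.055, edgeR adjusted p = 1.73e-06). The gene's span overlaps CHTOP and S100A1 in the deposited positions, and whether the counting used strand is not stated, so shared reads cannot be told apart.

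S100A3, a cysteine-rich member known from the hair cuticle, was low throughout. It was at 7.46, 7.29 and 6.32 CPM in untreated and 2.83, 3.49 and 3.39 CPM in rhCYGB libraries, and no library of one group reached the other. The mean fell 2.17-fold, from 7.03 ± 0.613 to 3.23 ± 0.357 CPM (log2 fold change -1.12, SE 0.136, edgeR adjusted p = 2.02e-06). With S100A4 it shares an overlap with the non-coding gene LOC101928034, whose counts were 45, 81 and 76 without and 0, 0 and 17 with rhCYGB. LOC101928034 was lower in the same direction, and reads that it shares with S100A3 or S100A4 cannot be told apart if strand was not used.

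S100A16 is a widely expressed member. Its untreated libraries were at 63.2, 65.5 and 61.2 CPM and its rhCYGB libraries at 60.9, 59.9 and 57.5 CPM, so that the lowest untreated and the highest treated library nearly met. The log2 fold change was -0.09 with a 95% interval from -0.19 to 0.01 (edgeR adjusted p = 0.0841). This call depends on the processing. With upper-quartile factors or total counts, by limma on FPKM, or among genes with at least 10 counts in every library it passed as lower, at -0.27 to -0.11.

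S100A14 and S100P, both epithelial members that can bind RAGE, were at the edge of detection and were not tested. S100P, which is known as a marker of pancreatic carcinoma and binds ezrin, had 0 counts in each of the 3 untreated libraries and 2, 12 and 10 counts after rhCYGB. Summed over each group, that is 0 against 0.224 CPM. Against the limit that a count of 0 allows (3 counts over the group), S100P was 9.16-fold higher after rhCYGB. That figure takes the treated counts as exact, so it is not a lower bound. S100A14 had 4, 5 and 9 counts without and 0, 0 and 4 counts with rhCYGB, and the 2 groups met at 4 counts. Such counts carry a wide counting error, and both genes are present at most as traces beside the other members.

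The deposited counts per transcript separate the starts of S100A2, which lie 1957 bases apart in the deposited positions as in RefSeq. Variants 1 and 3 of S100A2 begin at the upstream start, and variant 2 begins 1957 bases further in. Variant 2 had 2, 9 and 11 counts in the untreated and 104, 108 and 151 counts in the rhCYGB libraries. Its share of the S100A2 counts was 0.823%, 2.73% and 4.15% without and 8.71%, 9.84% and 13.2% with rhCYGB. The treated shares were all higher, with means of 2.57% ± 1.67 and 10.6% ± 2.34 (SD, n = 3 each). Variant 1 carried most of the rise in counts, from 213, 308 and 238 to 1065, 964 and 949. Variant 3 went from 28, 13 and 16 to 25, 26 and 43 counts, so its share was lower in every treated library, with means of 7.17% ± 3.92 and 2.74% ± 0.895.

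Both S100A4 variants have the same span, and variant 2 is the minor one. It had 2216, 2275 and 2678 counts without and 338, 325 and 464 counts with rhCYGB. Its share went from 9.69%, 8.35% and 10.2% to 3.70%, 4.02% and 5.37%, and the groups did not overlap. For S100A13 and S100A16, the shares of every variant overlapped between the groups. As background, shares of the groups did not overlap for 23.9% of 32098 transcripts. These were the transcripts with any counts from genes with several transcripts and at least 100 counts in every library. Transcript shares are estimates from reads that variants share and were not tested; with 3 libraries against 3 an exact permutation test cannot go below 0.1.

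**Figure D2:**
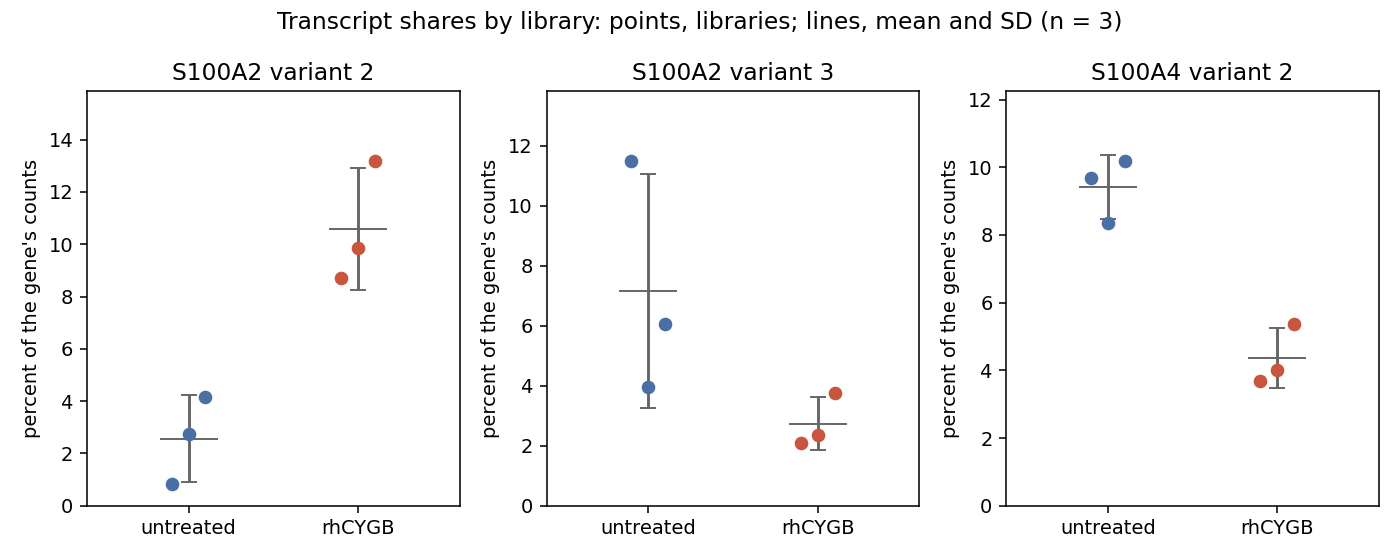
Share of a gene's counts (percent, vertical axes from 0) assigned to S100A2 variant 2, S100A2 variant 3 and S100A4 variant 2, by library, with mean and SD of 3 libraries. The share of S100A2 variant 2 lies higher in all 3 rhCYGB libraries, and the other shares lie lower.

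Levels between genes were compared per length, in FPKM (fragments per kilobase of transcript, scaled to the mapped fragments). In untreated cells the order of mean FPKM was S100A6 (2501 ± 68.5, the 21st highest of 35993 genes), S100A4 (1119.7 ± 40.2, 62nd), S100A11 (742 ± 13.6, 100th), S100A10 (319 ± 9.92, 173rd), S100A13 (79.3 ± 2.82), S100A16 (49.7 ± 1.50), S100A3 (8.82 ± 0.700) and S100A2 (6.50 ± 0.482). After rhCYGB it was S100A6 (1868 ± 63.9), S100A11 (1141 ± 20.9), S100A4 (389 ± 8.83), S100A10 (255 ± 6.81), S100A13 (52.3 ± 4.42), S100A16 (41.3 ± 1.17), S100A2 (28.1 ± 0.155) and S100A3 (3.61 ± 0.375). S100A11 and S100A4 changed places, and so did S100A2 and S100A3. No neighbours in either order overlapped in their range over 3 libraries.

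**Figure D3:**
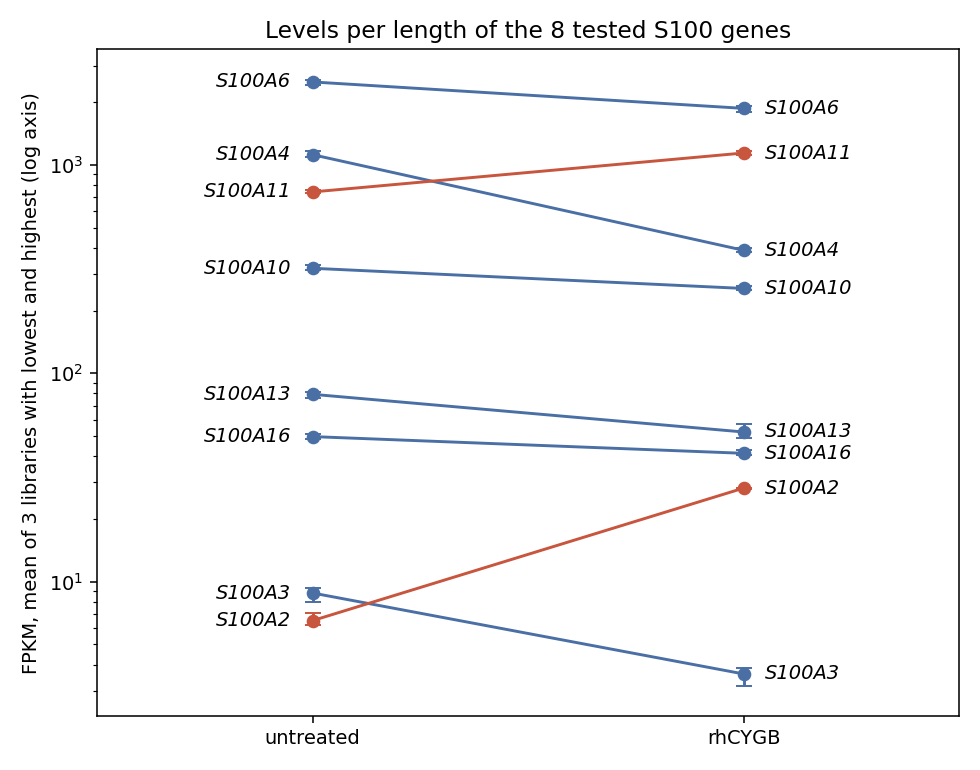
Mean FPKM (log axis) of the 8 tested S100 genes in untreated and rhCYGB libraries, with the lowest and highest library as bars. The lines of S100A11 and S100A4 cross, as do those of S100A2 and S100A3.

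S100A11 was at 0.689, 0.674 and 0.627 of the S100A4 level in FPKM in the untreated libraries and at 2.91, 2.97 and 2.91 times it after rhCYGB. Of the summed FPKM of the 10 genes, S100A11 made up 15.2% to 15.7% without and 29.8% to 30.5% with rhCYGB, and S100A4 22.5% to 24.3% and 10.0% to 10.5%. S100A6 kept close to the same share, 50.6% to 52.8% and 48.9% to 50.4%. The sum itself was lower in every treated library, from 4794 to 4855 FPKM without and from 3679 to 3841 FPKM with rhCYGB. In counts, the 10 genes took 0.272% to 0.278% of all counts without and 0.211% to 0.230% with rhCYGB. FPKM and shares of all counts do not use the TMM factors, which were 1.057 to 1.061 without and 0.9319 to 0.9553 with rhCYGB. Scaled to total counts, the median log2 fold change of all tested genes was -0.169, beside -0.00457 with TMM. Both falls include that shift.

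All members but S100P, which lies on chromosome 4 (6695605 to 6698897), lie on chromosome 1 in the deposited positions, whose human build the files do not name. S100A10 (151955391 to 151966335) and S100A11 (152004982 to 152009480) lie apart from the other 7, which run from S100A6 (from 153507075) to S100A13 (to 153606837). S100A2, the member with the largest rise, lies between S100A3 and S100A16 in this order, and S100A4 lies on the far side of S100A3. S100A5, which lies between S100A6 and S100A4 and was tested too, stood at 4.62, 4.84 and 4.07 CPM without and 1.80, 1.98 and 2.20 CPM with rhCYGB. It was lower in every treated library (log2 fold change -1.18, SE 0.164, edgeR adjusted p = 9.15e-06). S100A1, the calcium sensor of striated muscle, had 39, 92 and 63 counts and then 43, 26 and 38, which overlapped (log2 fold change -0.65, SE 0.288, edgeR adjusted p = 0.0521). S100A1 passed as lower under 7 of the other settings.

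**Figure D4:**
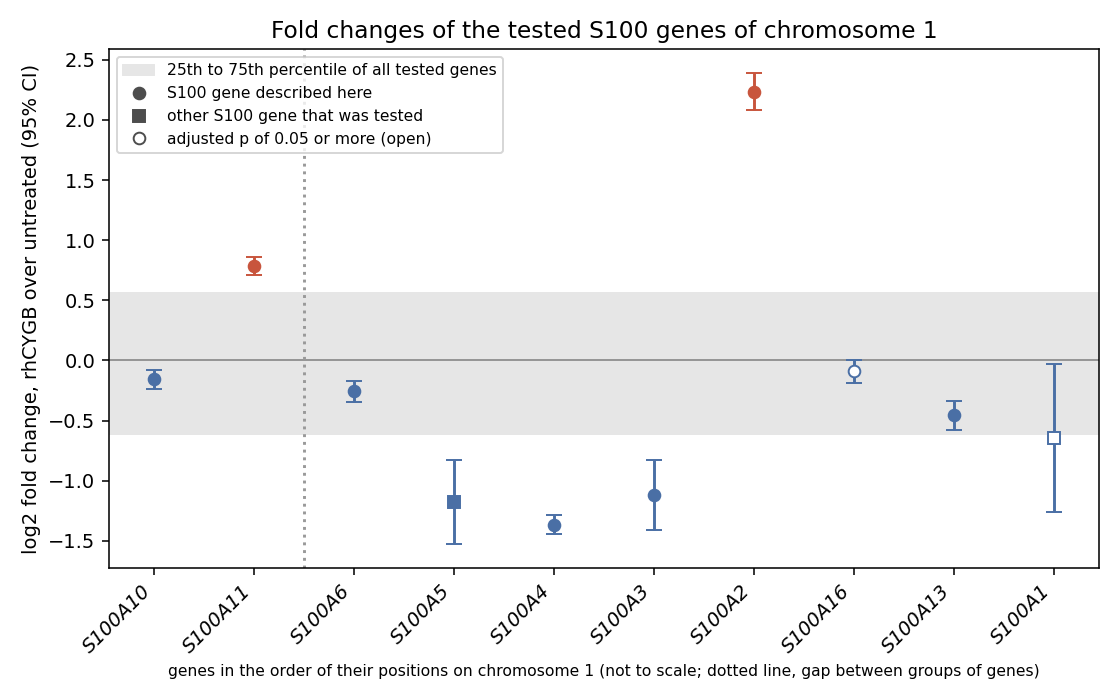
Log2 fold change (rhCYGB over untreated) with its 95% interval, derived from the edgeR test, for the 10 tested S100 genes of chromosome 1, in the order of their positions (not to scale). The grey band holds the 25th to 75th percentile of all tested genes, from -0.62 to 0.56, and S100A2 at 2.23 stands between S100A3 at -1.12 and S100A16 at -0.09.

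Within 250 kb of the 7 clustered members lay 23 other genes, of which 10 were tested, with 1 higher and 8 lower after rhCYGB (39.0% and 38.6% of all tested genes) and a median log2 fold change of -0.75. Past 2-fold were GATAD2B, a subunit of the NuRD chromatin complex (log2 fold change 1.39), and, as lower, S100A5, LOC101928034 (-3.35), the fatty acid transport gene SLC27A3 (-1.76) and the pseudogene LOC645965 (-1.67). Near S100A10 and S100A11, 7 of 20 other genes were tested, with 1 higher and 2 lower, and TDRKH was past 2-fold (-1.11). Near S100P, 9 of 10 were tested, with 2 higher and 6 lower and none past 2-fold; their median log2 fold change was -0.38.

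The annexins, calcium-dependent membrane-binding proteins that several S100 proteins grip, had 13 genes in the table. Of the 8 tested, 4 were higher and 3 lower, beside 39.0% and 38.6% of all tested genes, with a median log2 fold change of 0.20. ANXA1, partner of S100A11, was at 856, 859 and 875 CPM without and 1317, 1271 and 1316 CPM with rhCYGB, so it was higher in every treated library (log2 fold change 0.59, SE 0.031, edgeR adjusted p = 1.16e-10). ANXA2, partner of S100A10, was at 826, 839 and 822 CPM and then at 748, 703 and 714 CPM, lower in all treated libraries (log2 fold change -0.20, SE 0.034, edgeR adjusted p = 7.23e-05). ANXA11, partner of S100A6, fell from 177 ± 1.30 to 143 ± 5.32 CPM (log2 fold change -0.31, SE 0.038, edgeR adjusted p = 2.28e-06). The largest changes of the family were those of ANXA5, the phosphatidylserine-binding annexin, from 101 ± 3.33 to 221 ± 7.28 CPM (log2 fold change 1.12, edgeR adjusted p = 1.37e-12), and of ANXA6, from 243 ± 6.75 to 107 ± 4.36 CPM (log2 fold change -1.19, edgeR adjusted p = 8.53e-13).

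All 18 genes of the intracellular partners of S100 proteins were tested, and 9 were higher and 5 lower, with a median log2 fold change of 0.155. Together these are close to the 77.6% called among all tested genes. MDM2, a ubiquitin ligase, had the largest rise of the list, from 50.0 ± 1.59 to 166 ± 2.98 CPM (log2 fold change 1.74, edgeR adjusted p = 1.38e-14). EZR, the membrane linker ezrin that S100P binds, went from 430.0 ± 10.5 to 806 ± 22.8 CPM (log2 fold change 0.91, edgeR adjusted p = 3.52e-12). Both genes were higher in every treated library. In the deposited spans EZR overlaps EZR-AS1 and S100PBP, given next, overlaps YARS1, so that reads they share cannot be told apart if strand was not used. The same limit holds for other genes named here, among them S100A1 (with S100A13), MYH10 (with RPS26P53), FGFR1 (with RPS20P22), CALM3 (with PPP5D1) and KRT8 (with KRT18).

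Among the myosin and scaffold partners, MYH9, the heavy chain that S100A4 binds, was at 771, 762 and 748 CPM without and 692, 707 and 737 CPM with rhCYGB. Its log2 fold change was -0.09 (SE 0.034, edgeR adjusted p = 0.0208), and the call was lost without any 1 of untreated library 1, untreated library 2 or rhCYGB library 1, at -0.09 to -0.07. MYH10, its non-muscle relative, fell from 199 ± 7.44 to 86.8 ± 6.05 CPM (log2 fold change -1.20, edgeR adjusted p = 6.46e-12). AHNAK, the giant scaffold bound by the S100A10 and annexin A2 pair, fell from 723 ± 35.2 to 464 ± 35.1 CPM (log2 fold change -0.64, edgeR adjusted p = 1.38e-08). PPP5C, a phosphatase bound by several S100 proteins, fell from 69.8 ± 2.57 to 37.6 ± 0.222 CPM (log2 fold change -0.89, edgeR adjusted p = 1.03e-10). CACYBP did not pass the test, at 143 ± 7.33 and 147 ± 7.85 CPM (log2 fold change 0.04, 95% interval -0.06 to 0.14, edgeR adjusted p = 0.431). S100PBP, the nuclear partner of S100P, was at 28.9 ± 0.387 and 26.3 ± 2.61 CPM (log2 fold change -0.14, edgeR adjusted p = 0.0731), and it passed as lower under 6 of the 17 other settings, 1 of them without rhCYGB library 3 (-0.22), over a range of -0.30 to -0.09.

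Of 13 genes for receptors and release partners, 10 were tested, with 3 higher and 4 lower (39.0% and 38.6% of all tested genes) and a median log2 fold change of -0.23. AGER encodes RAGE, the receptor of several released S100 proteins, and had 131, 112 and 146 counts without and 16, 14 and 31 counts with rhCYGB. Every treated library was far below the untreated ones, and the mean went from 3.20 ± 0.606 to 0.564 ± 0.240 CPM (log2 fold change -2.49, SE 0.282, edgeR adjusted p = 9.35e-07). TLR4 had 0 counts in all 6 libraries, which allows up to 0.0669 to 0.0901 CPM per library. BSG, a widely expressed receptor of S100A9, fell from 883 ± 7.06 to 743 ± 25.2 CPM (log2 fold change -0.25, edgeR adjusted p = 7.89e-06), and EMB, its relative embigin, from 2.80 ± 0.254 to 1.50 ± 0.534 CPM (log2 fold change -0.90, edgeR adjusted p = 0.00377).

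Of the cargo of S100A13, IL1A, the cytokine interleukin-1 alpha, had 24, 59 and 27 counts without and 218, 144 and 215 counts with rhCYGB. No treated library came down to the untreated level (log2 fold change 2.59, SE 0.250, edgeR adjusted p = 1.48e-07). FGF1 was close to the detection limit, with 26, 16 and 21 and then 10, 11 and 10 counts (log2 fold change -0.83, SE 0.414, edgeR adjusted p = 0.0785). It passed as lower under 4 of the 17 other settings. FGFR1, a receptor of FGF1, rose from 22.1 ± 0.961 to 50.2 ± 1.63 CPM (log2 fold change 1.18, edgeR adjusted p = 2.22e-11). S100A13 itself was lower in the same libraries, as given above.

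Among 60 other EF-hand genes, whose proteins carry the same fold, 44 were tested, with 9 higher and 25 lower, 7 of these by 2-fold or more and none higher by 2-fold. Over all tested genes 77.6% were called, 38.6% as lower, and 14.7% were lower and 12.4% higher by 2-fold. Their median log2 fold change was -0.36, below that of the S100 genes (-0.21) and of all tested genes. The largest falls were of the calmodulin gene CALM3, from 341 ± 6.81 to 99.9 ± 2.42 CPM (log2 fold change -1.77, edgeR adjusted p = 5.27e-15), and of the centrin CETN2, from 69.2 ± 1.45 to 21.7 ± 2.13 CPM (log2 fold change -1.67, edgeR adjusted p = 1.86e-12). The largest rises were of SWAP70 (log2 fold change 0.78, edgeR adjusted p = 8.26e-10) and of PPP3R1, the calcineurin B subunit (0.53, edgeR adjusted p = 3.86e-08).

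**Figure D5:**
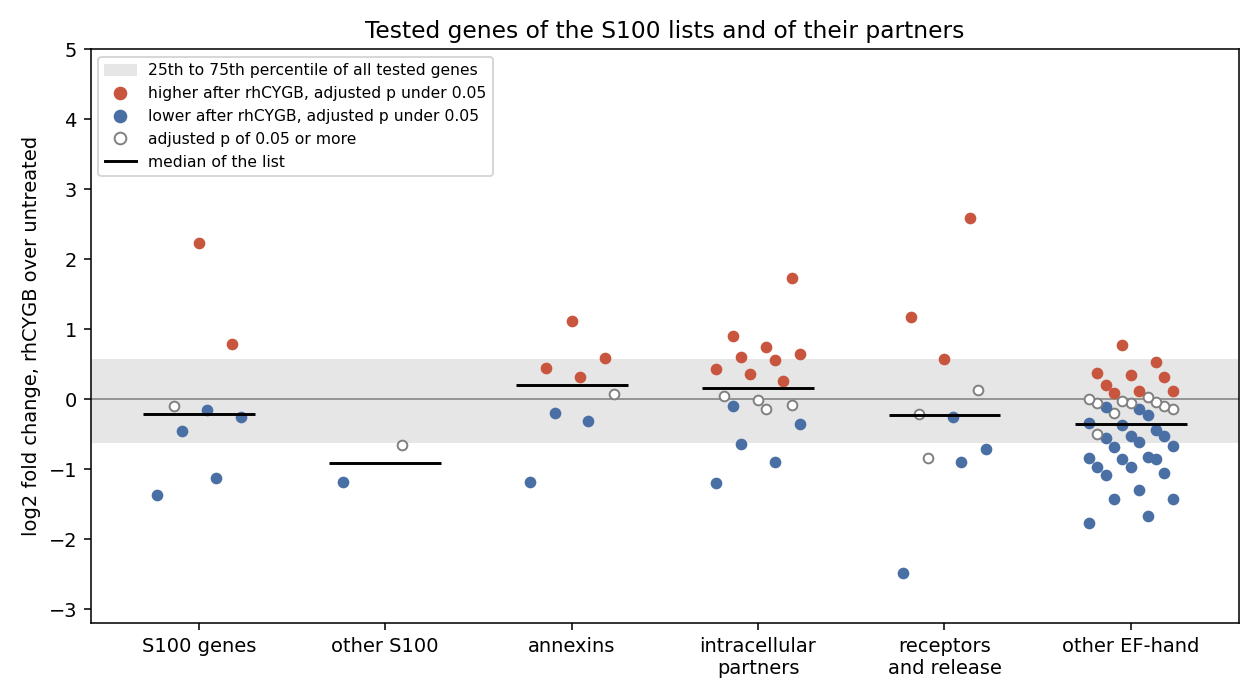
Log2 fold change (rhCYGB over untreated) of every tested gene in the 6 lists, with the list's median as a line. Filled points passed edgeR's adjusted p of 0.05, and the grey band holds the 25th to 75th percentile of all tested genes; the S100 genes spread from -1.37 (S100A4) to 2.23 (S100A2).

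The libraries held 34838399 to 42271299 counts. CDKN2A, which this line is known to lack, and CYGB had 0 counts in all 6 libraries. The 6 markers of the carcinoma line summed to 11800 to 12200 CPM without and 14500 to 15200 CPM with rhCYGB. Of these, VIM was higher (log2 fold change 0.55), KRT8 (-0.81) and KRT19 (-0.61) were lower and KRT18 did not pass the test (0.04), while EPCAM was at 0 and CDH1 had 2 counts in 1 library, so these 2 epithelial markers were at or near 0. All 5 acinar and islet markers were at 0. The summed level of the 6 immune markers was 34.2 to 38.0 CPM without and 70.3 to 72.4 CPM with rhCYGB, all of it CD68, with PTPRC and the other 4 at 0. The 4 endothelial markers summed to 109 to 122 and 10.5 to 13.6 CPM, nearly all CDH5, with PECAM1 and KDR at 0. The 7 fibroblast and stellate markers summed to 9.71 to 9.98 and 5.22 to 5.67 CPM, nearly all ACTA2 and COL3A1, with LUM and DCN at 0. COL3A1 had 146, 190 and 155 counts without and 2, 2 and 9 counts with rhCYGB. It was lower (log2 fold change -5.01, edgeR adjusted p = 2.72e-09). ACTA2 had 210, 234 and 243 and then 192, 180 and 196 counts and did not pass the test (log2 fold change -0.08). The part of these marker genes in the S100 results was not tested.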

How the data were processed

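RNA-seq of 3 untreated and 3 rhCYGB-treated MIA PaCa-2 libraries was analysed (TruSeq Stranded mRNA kit). The submitters' processing notes name FastQC 0.11.7, HISAT2 2.1.0 and StringTie 2.1.3b and the build mm10, although symbols and positions in the files are human; the human build and the use of strand in counting are not given in the sources used here. Read counts per gene and per transcript are raw whole numbers as the authors deposited them. FPKM values, scaled to transcript length and mapped reads, were computed by the authors and deposited beside them. The 6 TPM columns of each table were not used.

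Counts were tested with edgeR 4.0.16 in R 4.3.3 (filterByExpr, TMM, glmQLFit and glmQLFTest, all 6 libraries, no block), with Benjamini-Hochberg adjustment over 14728 genes and a threshold of 0.05. Of 35993 genes, 15205 had 0 counts everywhere. CPM uses TMM-scaled library sizes, and floors of 3 counts (0.0669 to 0.0901 CPM) cover counting error only. Standard errors and intervals of fold changes are not edgeR output. They were derived from its log2 fold change and test statistic, are approximate, and include the spread between libraries. Chi-square per degree of freedom between libraries of 1 group was 4.81 to 6.88, so none was counted as a duplicate. Transcript shares are counts of a variant over those of its gene. Promoter windows came from RefSeq (GRCh38.p14) and carry coordinates of that build, whereas gene positions are the deposited ones.

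Alternatives used DESeq2 1.42.0, limma 3.58.1 on log2(FPKM + 1) and log2(FPKM + 0.1), other scalings, other filters, a replicate block and each library left out. Counts were also simulated for this comparison, with 200 genes among 14620 tested changed by more than 2-fold. A simulated gene counted as called only if it passed the adjusted p and the 2-fold limit. By that rule edgeR called all 200 (100%, at every size simulated) and 12 of 14420 unchanged genes. Smaller changes and calls by adjusted p alone were not simulated, and far fewer genes were changed than were called in the data.

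The S100 genes, the lists of partners, the motifs and the tests were chosen with earlier results of these data known. All 10 S100 genes, S100A1 and S100A5 are named with values; from each other list, the 2 largest rises and the 2 largest falls past the threshold whose mean count reached 100 in the group where they were higher, plus ANXA1, ANXA2, ANXA11, AHNAK, CACYBP, S100PBP, EZR, MYH9, BSG, AGER, TLR4 and FGF1 whatever their values; of neighbours within 250 kb, those past 2-fold. A further gene that this rule names is not reported here.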

Additional observations from a re-analysis of the deposited data

How the results depend on the processing

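The calls and directions of S100A2, S100A3, S100A4, S100A6, S100A10, S100A11 and S100A13 were the same under all 17 alternatives. Their log2 fold changes ranged from 1.96 to 2.30 (S100A2), -1.28 to -1.02 (S100A3), -1.53 to -1.34 (S100A4), -0.42 to -0.21 (S100A6), -0.32 to -0.13 (S100A10), 0.62 to 0.81 (S100A11) and -0.62 to -0.41 (S100A13). Upper-quartile factors, total counts and limma on log2(FPKM + 0.1) moved the median of all genes to -0.15, -0.17 and -0.15, and the fall of S100A10 is of the size of that shift. The 2 S100 members below the filter were tested by DESeq2's Wald test and without a filter, where S100P passed (adjusted p = 0.00191 and 0.00561), making 2 members higher by 2-fold, and S100A14 did not (adjusted p = 0.263 and 0.203). S100A16 passed as lower at -0.23 (upper quartile), -0.26 (total counts), -0.26 and -0.27 (limma with 1 and 0.1 added) and -0.11 (at least 10 counts). Of the other S100 genes, 2 were lower with DESeq2 size factors, upper-quartile factors, total counts, both limma fits and at least 10 counts (S100A5 and S100A1), without a filter (S100A5 and S100Z), and 1 to 2 when each library was left out, with S100A1 passing at -0.86 without untreated library 1. Of the intracellular partners, 8, 9, 8 and 8 were lower with upper-quartile factors, total counts and the limma fits with 1 and 0.1 added, and 5 of the other EF-hand genes were higher in each of these 4. CACYBP turned negative there, at -0.10, -0.12, -0.12 and -0.12, and passed the test with total counts only. The cause of these moves was not tested. With each library left out, 2 S100 members were higher and 5 lower every time. The replicate block left 11351 genes called beside 11427 and changed no call of the members; the deviations of same-numbered libraries correlated at -0.05, 0.01 and 0.01, not every library correlated best with its own number, and the numbers were not taken as pairs. Of 612 recomputed values, 565 were classed as the same, 43 as moved, weaker or stronger, and 4 as reversed. A fold change was the same if its direction and call held. A count of a list was the same if it was equal or close to the main one. The 565 therefore include changed counts, such as 32 lower EF-hand genes with upper-quartile factors beside 25. Depth limits S100P and S100A14, where 3 counts are a floor.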

Other observations

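Of the 11 S100 genes outside the main list, 9 were not tested. S100A9, a subunit of the myeloid protein calprotectin, had 7 counts in rhCYGB library 1 and 0 in each of the other 5 libraries, and its partner S100A8 had 0 in all 6. S100Z had 3, 4 and 5 counts in the untreated and 0 in each rhCYGB library. It was 3.49-fold lower against a floor of 3 counts over the group, with the untreated counts taken as exact. Of the 7 genes in which an S100 domain is fused to a long repeat, 1 was tested, TCHH (trichohyalin, named after its values were seen), and it did not pass (log2 fold change -0.08).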
